A study of Sus scrofa with 12 samples.

Results

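The genes described here encode enzymes that break down the branched-chain amino acids leucine, isoleucine and valine, together with glutamate dehydrogenase, which acts after glutamine has been turned into glutamate. They are BCAT2, BCKDHA, BCKDHB, DBT, IVD, PCCA, PCCB, MCCC1 and GLUD1. They were taken by gene symbol, 9 of the 13536 genes that the array's annotation names, and the annotation gives them 16 of the 47845 probe sets. Ileal mucosa of 12 pigs was profiled, each pig on an Affymetrix pig array of its own with a single colour. The groups were 6 pigs of high and 6 pigs of low feed efficiency, a trait that relates growth to the feed eaten. Each group held 3 males and 3 females, and all pigs were 140 days old. In both groups pigs 1 to 3 are male and pigs 4 to 6 female, and these numbers only name the pigs.

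Breakdown of branched-chain amino acids takes place mainly in mitochondria. A transaminase first passes the amino group on to form glutamate, and a dehydrogenase complex then commits the remaining carbon skeleton to oxidation. Leucine ends as acetyl-CoA and acetoacetate, while isoleucine and valine yield propionyl-CoA, which is carboxylated and enters the citric acid cycle. Cells of the small intestinal lining use glutamine and glutamate as main fuels, and in pigs they also break down part of the branched-chain amino acids of the diet.

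The deposited values are log2 probe set signals. Where a gene had several probe sets, the one with the highest mean over the 12 arrays stands for it, and the others are given beside it. This was the case for 5 of the 9 genes, while 4 had 1 probe set. Probe sets among the 30% with the lowest means, under 2.67, were not tested. Of the 16 probe sets 11 passed, and with them 8 of the 9 genes; the probe set of MCCC1 did not. Differences come from limma fits over all 33405 probe sets kept, and adjusted p-values are Benjamini-Hochberg values over all of them, with a threshold of 0.05. The array medians lay between 5.30 and 5.35. High-efficiency pig 1 had the array least like the rest: its median correlation with the others was 0.899, against 0.93 to 0.962 for the other 11. The ileal genes FABP6, a bile acid binding protein, and SLC10A2, the bile acid transporter of the terminal ileum, were bright in both groups. FABP6 averaged 12.6 in high and 12.7 in low pigs and SLC10A2 averaged 10.2 in high and 10.1 in low pigs, whereas GATA4, a factor of the more proximal small intestine, was at 4.31 in high and 4.29 in low pigs.

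None of the 9 genes differed between high and low feed efficiency after adjustment. PCCB, the beta subunit of propionyl-CoA carboxylase, came nearest: its mean was 6.77 ± 0.59 in high and 7.35 ± 0.22 in low pigs (SD, n = 6 each), and its 3 lowest values were those of the 3 high males. The remaining 7 tested genes differed by at most 0.25 on the log2 scale. In the comparison of sexes, BCAT2 averaged 6.70 ± 0.35 over the 6 males and 7.35 ± 0.08 over the 6 females (SD) with no overlap, which also missed the threshold. Because the mucosa was measured in bulk, fewer cells of a type and less RNA per cell cannot be told apart in any of these values.

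**Figure D1:**
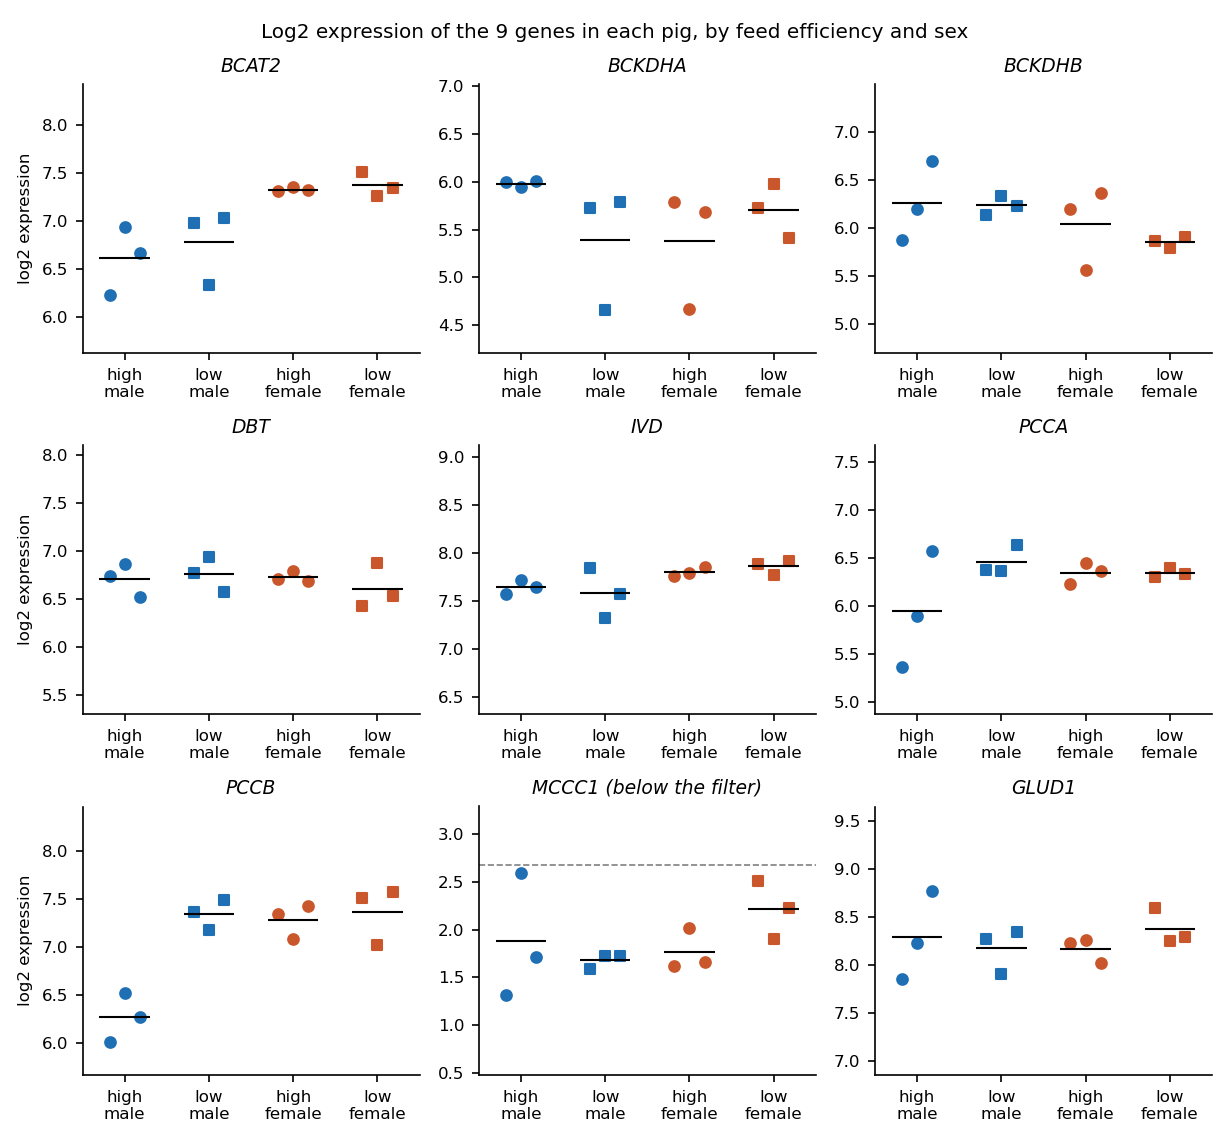
Log2 signal (vertical axes) of the probe set standing for each of the 9 genes in every pig, with high-efficiency males, low-efficiency males, high-efficiency females and low-efficiency females from left to right. Circles are high and squares low feed efficiency, blue is male and orange female, and bars are means of 3 pigs. The 3 high-efficiency males lie between 6.01 and 6.52 for PCCB, below all other pigs, and the 6 females lie above the 6 males for BCAT2.

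BCAT2 encodes the mitochondrial branched-chain aminotransferase, the enzyme of the first, reversible step. Its probe set SNOWBALL_008347_st had a lowest, median and highest value of 6.23, 7.13 and 7.36 in high pigs, against 6.33, 7.15 and 7.51 in low pigs. The groups overlapped over nearly their whole range, and the low end of each was held by males. High minus low was -0.11 ± 0.15 (SE; unadjusted p = 0.504, adjusted p = 0.999, limma), and -0.013 without high pig 1. A second probe set, SNOWBALL_008543_s_st, gave -0.08 ± 0.13 with 6.39, 6.53 and 6.74 in high and 6.39, 6.53 and 7.09 in low pigs.

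The branched-chain 2-oxo acid dehydrogenase complex catalyses the irreversible step. BCKDHA and BCKDHB encode the alpha and beta subunits of its decarboxylase (E1), and DBT encodes the core transacylase (E2). For BCKDHA the lowest, median and highest values were 4.67, 5.86 and 6.01 in high pigs and 4.66, 5.72 and 5.98 in low pigs. Each group had 1 pig well below the rest, high pig 5, a female, and low pig 2, a male, and all other values lay between 5.41 and 6.01. High minus low was 0.14 ± 0.27 (SE; adjusted p = 0.999, limma), and it depended on those pigs: 0.344 without high pig 5 and -0.077 without low pig 2.

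BCKDHB was at 5.56, 6.20 and 6.70 in high pigs, against 5.79, 6.02 and 6.34 in low pigs. The high group spanned the whole range of the low group, and the difference was 0.10 ± 0.17 (SE; adjusted p = 0.999, limma), and 0.014 without high pig 3. DBT varied least of the 8 tested genes, with an SD of 0.16 over the 12 pigs, and was at 6.51, 6.72 and 6.86 in high and 6.42, 6.67 and 6.94 in low pigs. The DBT difference was 0.03 ± 0.12 (SE; adjusted p = 0.999, limma), with a 95% interval of -0.23 to 0.29. Its other probe sets averaged 1.81 and 1.42 over the 12 pigs and were too dim to test.

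IVD and MCCC1 belong to the leucine branch. IVD encodes isovaleryl-CoA dehydrogenase, which acts on the product of the dehydrogenase complex. It was at 7.57, 7.74 and 7.85 in high pigs and at 7.32, 7.81 and 7.92 in low pigs. The groups overlapped, low pig 2 was the lowest of all, and the difference was 0.003 ± 0.108 (SE; 95% interval -0.23 to 0.24; adjusted p = 0.999, limma). MCCC1 encodes the biotin-carrying alpha subunit of methylcrotonyl-CoA carboxylase, the next enzyme of the branch. Its probe set read 1.32, 1.69 and 2.59 in high and 1.59, 1.81 and 2.51 in low pigs, all under the limit of 2.67, so no difference was tested. A second IVD probe set, at a mean of 1.69, was equally dim.

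Propionyl-CoA carboxylase is built from alpha subunits, which carry biotin and are encoded by PCCA, and beta subunits encoded by PCCB. PCCA was at 5.36, 6.30 and 6.57 in high pigs, against 6.30, 6.37 and 6.63 in low pigs. High pigs 1 and 2, both male, were at 5.36 and 5.90 and lay below every other pig, while high pig 3 at 6.57 was the second highest of all. High minus low was -0.25 ± 0.19 (SE; unadjusted p = 0.2, adjusted p = 0.999, limma), and without high pig 1 it was -0.093.

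PCCB read 6.01, 6.52 and 6.27 in the high males, against 7.36, 7.17 and 7.49 in the low males. In females it read 7.35, 7.09 and 7.42 in high pigs, against 7.51, 7.02 and 7.57 in low pigs. The 3 high males were thus the lowest 3 of the 12 pigs, and the other 9 pigs lay together between 7.02 and 7.57. How many of all probe sets place the high males below every other pig was not counted. Under the looser rule of high males below all low males the share was 3.37%. High minus low over all pigs was -0.58 ± 0.20 (SE; 0.67-fold, 95% interval -1.01 to -0.15), with an unadjusted p of 0.0122 and an adjusted p of 0.999 by limma. A second PCCB probe set, SNOWBALL_015615_st, also had its lowest 3 values in the high males. It read 5.59, 6.31 and 6.13 in high males against 6.84, 6.68 and 6.95 in low males, and 6.87, 6.81 and 7.36 in high females against 7.18, 6.60 and 7.32 in low females, and its difference was -0.42 ± 0.20 (SE; unadjusted p = 0.0633, limma). Both probe sets are annotated to the same gene and were read from the same RNA, so they are not separate evidence.

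GLUD1 encodes glutamate dehydrogenase, which releases ammonia from glutamate and feeds its carbon into the citric acid cycle. It was at 7.86, 8.23 and 8.78 in high pigs and at 7.91, 8.29 and 8.60 in low pigs. The extremes of all 12 were both high males, pig 1 at 7.86 and pig 3 at 8.78, and the groups overlapped throughout. High minus low was -0.05 ± 0.16 (SE; adjusted p = 0.999, limma). A dimmer second probe set, averaging 3.60 over the pigs, gave 0.23 ± 0.40, and another at a mean of 2.00 was not tested.

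Over the 8 tested genes, 4 had a higher and 4 a lower mean in high pigs, with a median difference of -0.02. The median over all 12160 genes tested was -0.009, and 52.5% of them were lower. None of the 8 passed an adjusted p of 0.05, and of all 33405 probe sets 0 did (0%). At an unadjusted p under 0.05, 1 of the 8 was called, PCCB, as were 3.17% of all probe sets in either direction and 1.42% in the lower direction.

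**Figure D2:**
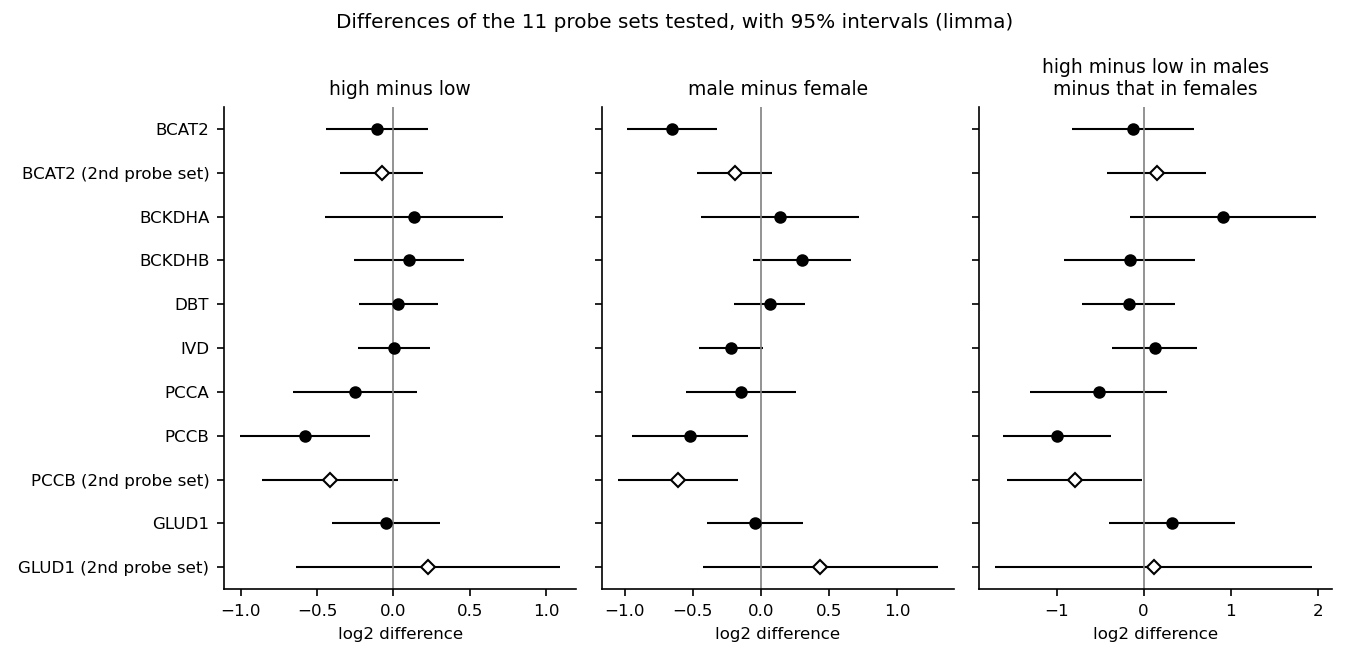
Log2 differences (horizontal axes) with 95% intervals for the 8 tested genes in the 3 comparisons, high minus low, male minus female, and the feed efficiency difference in males minus that in females. Filled points are the probe sets standing for the genes and open diamonds second probe sets. For PCCB the interval of high minus low runs from -1.01 to -0.15, and for BCAT2 that of male minus female from -0.99 to -0.32.

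Whether the feed efficiency difference itself differed between the sexes was tested in the same samples. For PCCB, high minus low was -1.08 ± 0.21 in males and -0.08 ± 0.20 in females (SE, n = 3 per group), and the difference between these, males minus females, was -0.995 ± 0.284 (SE; unadjusted p = 0.00485, adjusted p = 1, limma). It ranked 67 of 33405 probe sets by p, and 0 of them passed the adjusted threshold (0%). The second probe set gave -0.79 ± 0.35 (unadjusted p = 0.0463, adjusted p = 1, limma). At an unadjusted p under 0.05, PCCB was the 1 of 8 genes called, against 2.76% of all probe sets and 1.20% in the lower direction. High males lay wholly below low males for 3.37% of all probe sets, PCCB among them. Leaving out each pig in turn kept the PCCB value between -1.12 and -0.822, and the value of high minus low between -0.711 and -0.467.

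In this comparison of feed efficiency differences, males minus females, several lists of cell markers and related genes leaned the same way and others did not. The adjusted p was 1 for each of these genes by limma. Of 14 enterocyte markers 13 were lower, with a median of -0.79, and of 5 B cell markers 5 were lower, with a median of -1.42. Mitochondrial content had 9 of 11 lower (median -0.46), glutamine and glutamate metabolism 14 of 17 (median -0.47) and the other steps of branched-chain amino acid breakdown 15 of 21 (median -0.13). T cell markers had 5 of 6 lower (median -0.07) and plasma cell markers 3 of 4 (median -0.52). Smooth muscle markers went the other way, with 7 of 8 higher (median 0.26). So did stromal markers, with 4 of 6 higher (median 0.07), and ileal markers, with 2 of 3 higher (median 0.245). Over all genes tested 54.2% were lower, with a median of -0.03. The enterocyte score, which averages each marker's log2 value minus its own mean, was -1.86, -0.554 and 0.753 in the high males, against 0.392, 0.031 and 0.629 in the low males. The B cell score was 0.584, 1.045 and -1.399 in high males, against 0.627, 0.508 and -0.231 in low males, and low pig 4, a female, had the lowest of all at -3.422. The part of these markers in the PCCB value was not tested.

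BCKDHA had the largest value in the other direction. It read 5.99, 5.94 and 6.01 in high males against 5.72, 4.66 and 5.78 in low males, and 5.79, 4.67 and 5.69 in high females against 5.72, 5.98 and 5.41 in low females. The 3 high males were higher than all low males, as was the case for 4.10% of all probe sets. The BCKDHA value of 0.91 ± 0.49 (SE; unadjusted p = 0.0863, adjusted p = 1, limma) was 0.557 without high pig 5 and 0.55 without low pig 2. PCCA gave -0.52 ± 0.36 (SE; adjusted p = 1, limma), and without high pig 1 it was -0.226. The other 5 tested genes lay between -0.17 and 0.33 with standard errors of 0.22 to 0.34.

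Between the sexes the largest differences were those of BCAT2 and PCCB, and neither passed the threshold. For BCAT2 the males were at a lowest, median and highest value of 6.23, 6.81 and 7.04, against 7.27, 7.33 and 7.51 for the females. Every male lay below every female, and the females were closer to each other than the males were. Male minus female was -0.65 ± 0.15 (SE; 0.64-fold, 95% interval -0.99 to -0.32; unadjusted p = 0.00107, adjusted p = 0.0919, limma). The second BCAT2 probe set did not separate the sexes, with 6.39, 6.47 and 6.64 in males, 6.41, 6.67 and 7.09 in females and a difference of -0.19 ± 0.13 (SE; adjusted p = 0.433, limma).

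None of the cell markers passed the adjusted threshold between males and females (limma). At an unadjusted p under 0.05, 2 plasma cell, 1 T cell and 1 enterocyte marker were lower in males, as were 9.17% of all probe sets. The mean was lower in males for 3 of 4 plasma cell markers (median -0.40), 6 of 6 T cell markers (median -0.32) and 5 of 6 stromal markers (median -0.26). It was also lower for 10 of 14 enterocyte markers (median -0.36), 6 of 8 smooth muscle markers (median -0.08) and 3 of 3 ileal markers (median -0.17). Of 5 B cell markers 1 was lower (median of all 5, 0.21). Over all genes tested 55.7% were lower in males. The plasma cell score ran from -0.696 to 0.16 in males and from 0.02 to 0.361 in females. XBP1 had the lowest adjusted p of the plasma cell list, 0.0919 by limma, while SDC1 of the same list was higher in males (0.083). In this comparison 1.74% of all probe sets had an adjusted p under 0.1 by limma. The enterocyte score ran from -1.86 to 0.753 in males and from -0.37 to 0.777 in females. The part of these markers in the BCAT2 value was not tested.

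PCCB was at 6.01, 6.84 and 7.49 in males and at 7.02, 7.38 and 7.57 in females. The low males lay within the female range and the high males below it, and male minus female was -0.52 ± 0.20 (SE; unadjusted p = 0.0208, adjusted p = 0.186, limma). The second probe set gave -0.61 ± 0.20 (SE; adjusted p = 0.153, limma). IVD had a difference of -0.22 ± 0.11 (SE; adjusted p = 0.296, limma) with 7.32, 7.61 and 7.85 in males and 7.77, 7.82 and 7.92 in females. BCKDHB pointed the other way at 0.30 ± 0.17 (SE; adjusted p = 0.352, limma), with 5.87, 6.22 and 6.70 in males and 5.56, 5.89 and 6.36 in females. BCKDHA, DBT, PCCA and GLUD1 differed by between -0.15 and 0.14.

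Of the 8 genes, 3 were higher and 5 lower in males, with a median of -0.09, against -0.035 over all genes tested, of which 55.7% were lower. None passed an adjusted p of 0.05, as 11 of all probe sets did (0.0329%). At an unadjusted p under 0.05, 2 of 8 were called, both lower in males, against 19.0% of all probe sets in either direction and 9.17% lower in males. BCAT2 was the 1 gene whose sexes did not overlap, against 0.934% of all probe sets that were lower in males in this way. Pig identifiers fall in a range of 301 to 310, with all 6 males and 2 females, and one of 317 to 324, with 4 females. What the ranges stand for is not given. Within the first range alone the BCAT2 difference was -0.711 (adjusted p = 0.274, limma) and the PCCB difference -0.626 (adjusted p = 0.3, limma), and high minus low for PCCB was -0.848. The second range holds no males.

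The genes did not vary as a block over the 12 pigs. Of the 36 pairs, 21 had a positive and 15 a negative Pearson correlation, with a median of 0.12, and 0 passed an adjusted p of 0.05 over the 36 pairs (permutation tests with 100000 resamples). Without high pig 1 the median was -0.109. MCCC1 is among the 9 genes of these pairs although its probe set was dim. There were 4 pairs at an unadjusted p under 0.05, and 2 with group and sex means removed. The share among pairs of other genes was not counted. The strongest of the 36 pairs was BCAT2 with IVD, at r = 0.824 (permutation p = 0.0014, adjusted p = 0.0504) and Spearman's rho = 0.797 (permutation p = 0.00281, adjusted p = 0.101). Without the 2 pigs farthest from the BCAT2 median r was 0.668. Within groups it was 0.958 in high and 0.889 in low pigs, and within sexes 0.658 in males and 0.573 in females (n = 6 each). With group and sex means removed it was 0.667 (permutation p = 0.0192, adjusted p = 0.345).

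BCAT2 and PCCB had r = 0.684 (permutation p = 0.0141, adjusted p = 0.188; rho = 0.671, permutation p = 0.0198, adjusted p = 0.33). Their r was 0.721 without the 2 farthest pigs and 0.491 without high pig 1. Within groups it was 0.944 in high and 0.425 in low pigs, and within sexes 0.527 in males and 0.519 in females. With group and sex means removed it was 0.515 (permutation p = 0.0864, adjusted p = 0.499). DBT and GLUD1 were opposed, at r = -0.667 (permutation p = 0.0157, adjusted p = 0.188; rho = -0.643, permutation p = 0.0275, adjusted p = 0.33), and -0.465 without the 2 farthest pigs. The subunit partners PCCA and PCCB had r = 0.604 (permutation p = 0.0365, adjusted p = 0.328) but rho = 0.112 (permutation p = 0.733, adjusted p = 0.91). Their relation rested on single pigs, since r was 0.163 without high pig 1 and -0.459 without the 2 farthest. The partners BCKDHA and BCKDHB had r = 0.268.

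**Figure D3:**
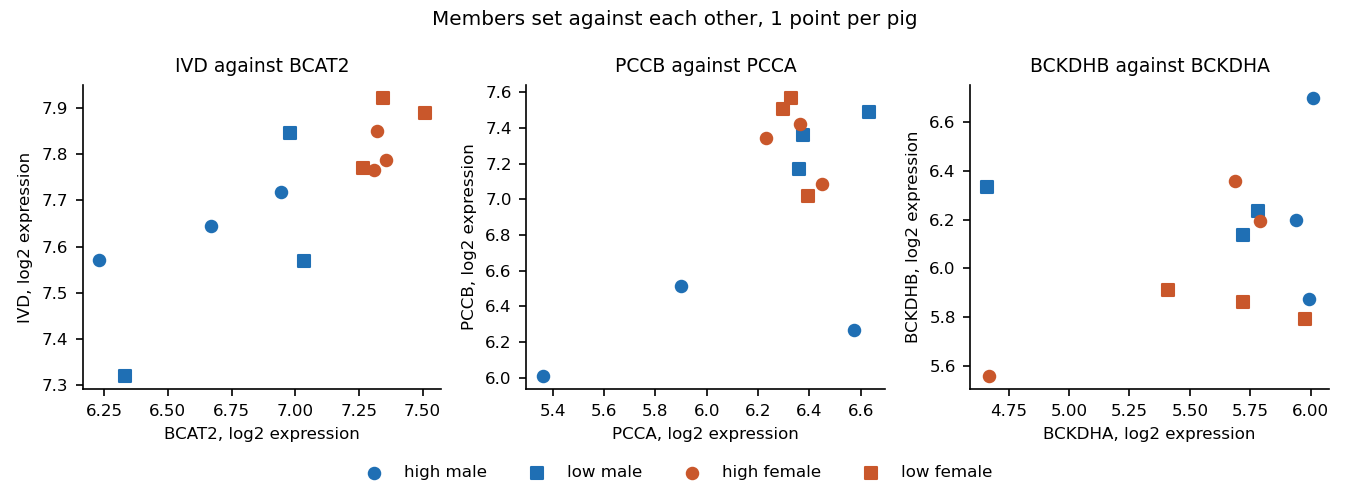
Log2 expression of IVD against BCAT2, of PCCB against PCCA and of BCKDHB against BCKDHA, with 1 point per pig. Circles are high and squares low feed efficiency, blue is male and orange female. Pearson's r over the 12 pigs is 0.824 for BCAT2 with IVD, 0.604 for PCCA with PCCB and 0.268 for BCKDHA with BCKDHB.

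The genes whose pattern was most like that of the 9, by mean Pearson r with them over the 12 pigs, were FOXN3 (0.407), KRT8 (0.403), QSOX1 (0.402), WISP1 (0.402) and ACAA2 (0.402). KRT8 encodes a keratin of simple epithelia and ACAA2 a thiolase of mitochondrial fatty acid oxidation. Without high pig 1 these means were between 0.222 and 0.24.

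Marker genes of the tissue's cell types were read beside the 9 genes, as the same score per pig. Of 14 enterocyte markers 13 were lower in high pigs, with a median difference of -0.47. The score was -0.24 ± 0.94 in high pigs, from -1.86 to 0.75, and 0.24 ± 0.42 in low pigs, from -0.25 to 0.78 (SD, n = 6 each; exact permutation p = 0.33, adjusted over 8 lists p = 0.768, two-sided). High pig 1 held the lowest score, -1.86, and its values of PCCB, PCCA, BCAT2 and GLUD1 were also the lowest of the 12 pigs. Without it the score differed by -0.154.

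Against this score PCCA had r = 0.838 (permutation p = 0.00419, adjusted over 9 relations p = 0.0377) with rho = 0.378 (permutation p = 0.227, adjusted p = 0.409), and r was 0.512 without high pig 1, 0.617 without the 2 farthest pigs, 0.988 in males and -0.798 in females. GLUD1 had r = 0.678 (permutation p = 0.0173, adjusted p = 0.0777; rho = 0.636, permutation p = 0.0306, adjusted p = 0.138), and 0.45 without the 2 farthest. DBT ran the other way, with r = -0.474 (permutation p = 0.117, adjusted p = 0.219), rho = -0.664 (permutation p = 0.0219, adjusted p = 0.138) and r = -0.682 without high pig 1. PCCB had r = 0.594 (permutation p = 0.0423, adjusted p = 0.127; rho = 0.497, permutation p = 0.104, adjusted p = 0.313), and 0.188 without high pig 1. High pig 3, a male, had the second highest score, 0.753, and a PCCB value of 6.27. The part of cell makeup in the PCCB and PCCA values was not tested. The scores of smooth muscle, B cell, T cell, plasma cell, stromal and ileal markers differed between high and low pigs by 0.181, 0.377, -0.115, -0.156, 0.004 and 0.005, with exact permutation tests giving adjusted p-values of 0.768 to 0.995.

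The regulators and partners of these enzymes differed little between the groups, and none passed the test. BCKDK, the kinase that switches the complex off, was at 7.09 ± 0.28 in high and 7.09 ± 0.19 in low pigs, and PPM1K, the phosphatase that switches it on, at 5.37 ± 0.45 in high and 5.34 ± 0.23 in low pigs (SD, n = 6 each). DLD, the shared E3 subunit, differed by 0.07 ± 0.13 and MCCC2, the partner of MCCC1, by -0.12 ± 0.13 (SE). The second MCCC2 probe set had the opposite sign. BCAT1, the cytosolic aminotransferase, varied widely and differed by -0.06 ± 0.41 (SE). For each of these limma's adjusted p was 0.999 or above. In the sex comparison, their values were 0.11 for BCKDK, 0.24 for PPM1K, 0.20 for DLD, -0.02 for MCCC2 and -0.10 for BCAT1, with adjusted p-values of 0.428 or more by limma.

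Of the other genes of branched-chain amino acid breakdown, 21 were tested between high and low pigs: 7 were higher, 14 lower, and 0 passed the test, adjusted or not, with a median of -0.10. The smallest p-values belonged to HSD17B10 of the isoleucine branch (-0.18 ± 0.13), ALDH6A1 of the valine branch (-0.32 ± 0.24) and OXCT1, which activates ketone bodies (-0.32 ± 0.25, SE). Without high pig 1, ALDH6A1 gave -0.098 and OXCT1 -0.107, and without low pig 1 HSD17B10 gave -0.088. Between males and females 8 were higher and 13 lower, with a median of -0.06, and 0 passed the adjusted test. At an unadjusted p under 0.05, 1 was higher and 3 were lower. Among the lower ones were BTD, which recycles the biotin that the carboxylases carry (-0.45 ± 0.15, SE; adjusted p = 0.148, limma), and ECHS1, a hydratase of the valine branch (-0.57 ± 0.22, SE; adjusted p = 0.19, limma).

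Of 17 genes of glutamine and glutamate metabolism, 7 were higher and 10 lower in high pigs, 0 passed the test adjusted or not, and the median was -0.12. NAGS, which makes the activator of ammonia capture, differed by -0.47 ± 0.25, PSAT1 of serine synthesis by 0.43 ± 0.25, and GFPT1, which uses glutamine to make hexosamines, by -0.34 ± 0.21 (SE; adjusted p = 0.999 each, limma). Without high pig 1 NAGS gave -0.305 and GFPT1 -0.182, and without low pig 4 PSAT1 gave 0.257. Glutamine synthetase, GLUL, differed by 0.06 ± 0.27 (SE). Its second probe set had the opposite sign, and the mean over its probe sets differed by -0.292. Between the sexes GLUL averaged 8.30 ± 0.64 over the 6 males and 9.15 ± 0.23 over the 6 females (SD), a difference of -0.84 ± 0.27 (SE; adjusted p = 0.138, limma). NAGS gave -0.81 ± 0.25 (SE; adjusted p = 0.134, limma), and 5 of the 17 were higher and 12 lower in males, with a median of -0.18. At an unadjusted p under 0.05, 1 was higher and 3 were lower, and 0 passed the adjusted threshold.

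Among 13 transporters of these amino acids, 7 were higher and 6 lower in high pigs, with 0 called and a median of 0.05. SLC25A22, a mitochondrial glutamate carrier, differed by -0.20 ± 0.12, SLC25A44, a mitochondrial carrier of branched-chain amino acids, by -0.30 ± 0.21, and SLC7A6, an exchanger of the cell surface, by 0.25 ± 0.18 (SE; adjusted p = 0.999 each, limma). Without high pig 1 the SLC25A44 value was -0.122 and that of SLC7A6 0.123. Between the sexes 4 were higher and 9 lower in males, with a median of -0.14, 3 lower at an unadjusted p under 0.05 and 0 past the adjusted threshold. SLC25A44 averaged 8.04 ± 0.55 over males and 8.67 ± 0.08 over females (SD; difference -0.63 ± 0.21, adjusted p = 0.148, limma), with the same sign in all 3 of its probe sets. SLC7A8, a surface exchanger of neutral amino acids, differed by -0.74 ± 0.21 (SE; adjusted p = 0.12, limma), and its second probe set had the opposite sign.

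The pyruvate and 2-oxoglutarate dehydrogenases are built like the branched-chain complex. Of 11 of their subunits and regulators, 6 were higher and 5 lower in high pigs, with 0 called and a median of 0.01. DLAT, the E2 of pyruvate dehydrogenase, differed by -0.24 ± 0.15, the kinase PDK4 by 0.58 ± 0.53, with its second probe set opposite, and the phosphatase regulator PDPR by 0.07 ± 0.09 (SE). Without low pig 1 the PDK4 value was 0.138. Between the sexes 6 were higher and 5 lower in males, with a median of 0.01, 1 higher at an unadjusted p under 0.05 and 0 past the adjusted threshold. PDHA1, the pyruvate dehydrogenase E1 alpha subunit, gave 0.38 ± 0.16 (adjusted p = 0.222, limma) and the kinase PDK2 -0.40 ± 0.23 (SE; adjusted p = 0.358, limma).

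Of 11 genes that stand for mitochondrial content 10 were lower in high pigs, with 0 called and a median of -0.15. The score of this list was -0.07 ± 0.30 in high and 0.07 ± 0.13 in low pigs (SD, n = 6 each; exact permutation p = 0.275, adjusted p = 0.768), and high pig 1 had -0.613, the lowest. High minus low of the score was -0.148 over all pigs and -0.04 without high pig 1. CS, citrate synthase, differed by -0.32 ± 0.22, TOMM20, an import receptor, by -0.15 ± 0.13 and HSPD1, a chaperonin, by -0.19 ± 0.18 (SE). The CS value was -0.105 without high pig 1, that of HSPD1 -0.077 without low pig 5 and that of TOMM20 -0.086 without low pig 3. Between the sexes 3 were higher and 8 lower in males with a median of -0.35. Of these, 1 was higher and 3 were lower at an unadjusted p under 0.05, and 0 passed the adjusted threshold. TFAM, which maintains mitochondrial DNA, gave 0.44 ± 0.16 (adjusted p = 0.175, limma) and PHB2, a prohibitin of the inner membrane, -0.67 ± 0.25 (SE; adjusted p = 0.185, limma).

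**Figure D4:**
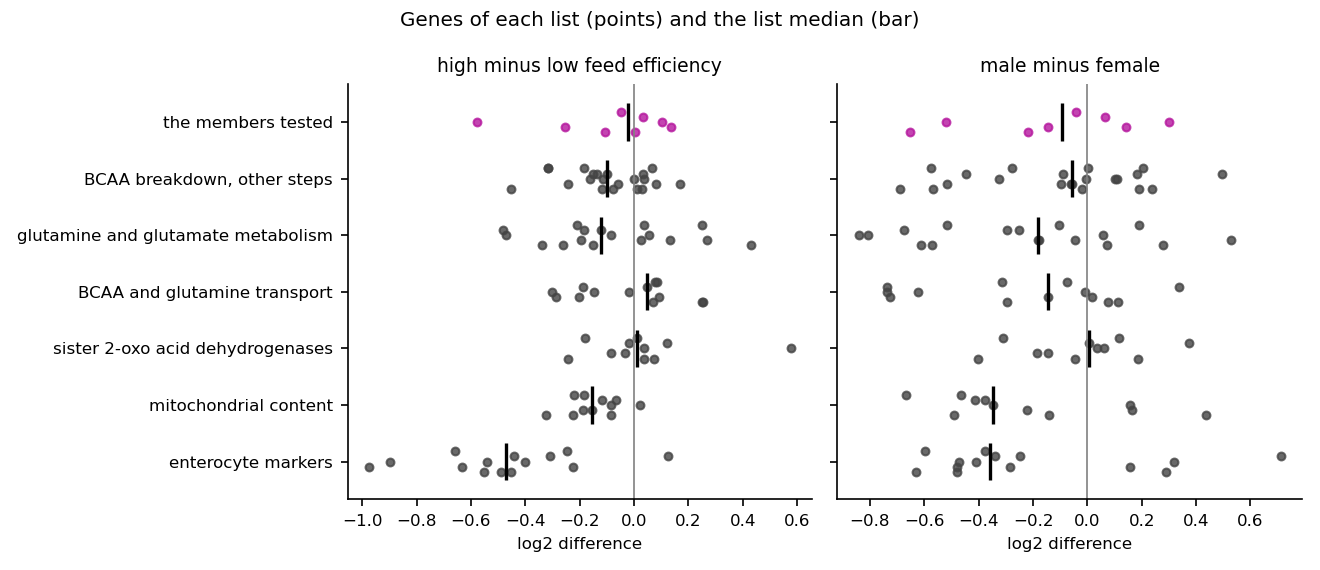
Log2 differences (horizontal axes) of the tested members, of 5 lists of related genes and of the enterocyte markers, for high minus low and male minus female. Each point is a gene and the bar is the list's median. The medians for high minus low run from -0.47 for enterocyte markers to 0.05 for transport, with -0.15 for mitochondrial content.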

How the data were processed

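Total RNA of ileal mucosa from 12 pigs was hybridised to 1-colour pig arrays, per the labels' protocols. The authors deposited log2 values, 1 per probe set and array, for 47845 probe sets. The scale was read from the values, which run from 0.3 to 14.24. GCOS 1.1.1 is named per the submitters' processing notes. How background, summarisation and normalization were handled was not given in the sources used here, and no normalization was added. The precision of the differences is limited by the number of pigs, and no scan date or slide was given.

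Names came from the platform annotation, with a gene symbol for 26426 probe sets. Through the Sscrofa11.1 gene table, used for names only, 448 symbols were updated. After leaving out 123 controls and the dimmest 30%, those averaging under 2.67, 33405 probe sets were tested. Models were fitted with limma 3.58.1 in R 4.3.3 (lmFit, eBayes), with terms for feed efficiency and sex. For the difference of the feed efficiency difference, males minus females, a model of the 4 means of group and sex was used. Benjamini-Hochberg adjustment ran over all probe sets kept. Correlations and scores used Python 3.11.15 with scipy 1.17.1, with feed efficiency labels permuted within sex over 400 arrangements for scores. The scripts were tested on simulated data.

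The members and lists were chosen with earlier results of these data known. The rule for named genes takes all 9 members with every probe set, the direct partners BCKDK, PPM1K, DLD, MCCC2, BCAT1 and GLUL (another is not reported here), up to 3 genes of each list by p for feed efficiency and up to 2 for sex, and the 5 genes most like the members. Alternatives were other filters, array weights, quantile normalization, a trended and robust variance, median centring, identifier range as a term or its first range alone, each sex alone, feed efficiency left out of the sex fit, 1 probe set or the mean of the probe sets per gene, and each pig left out. No gene sequence is printed, since none was used here.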

Additional observations from a re-analysis of the deposited data

Results flagged for a closer look

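The 6 values of each feed efficiency group were checked for a single pig far from the others with Dixon's ratio, over 22 groups of the tested probe sets of the 9 genes. Chance flags about 1 in 20 groups. BCKDHA in high-efficiency pig 5, a female, was 4.667, with the nearest other high pig at 5.685, so that the gap took up 0.759 of the group's range. PCCA in low-efficiency pig 3, a male, was 6.631, with the nearest at 6.396 and a gap of 0.708 of the range. The critical value for 6 samples is 0.625.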

How the results depend on the processing

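None of the 8 tested genes passed the adjusted threshold in any comparison under any alternative tried. The lowest adjusted p, 0.0566, was that of male minus female for BCAT2 without low pig 1. Of 69 results for single genes, 25 reversed in at least 1 alternative. High minus low for BCKDK, at 0.00 in the fit reported and so without a direction to reverse, ran from -0.16 to 0.159. No paired analysis was possible because the replicate numbers only name the pigs. The number of probe sets called between the sexes, 11, was 7 with no filter, 4 with the lowest 50% left out, 7 with a trended and robust variance, 6 with identifier range as a term, 4 within range 301 to 310, 0 with 1 probe set per gene, and 5 to 417 with 1 pig left out, 417 without low pig 1. Between high and low pigs 0 were called, at unadjusted p 1059, and 1 in females alone. The feed efficiency difference in males minus that in females had 0 called, and 0 to 1 with 1 pig left out. The causes of these shifts were not tested.

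These results reversed. High minus low for IVD was -0.014 with median centring, -0.002 with array weights and -0.06 in females. In males alone it was -0.053 for DBT, 0.113 for GLUD1, -0.034 for PPM1K and -0.004 for GLUL. In females alone it was -0.322 for BCKDHA, 0.007 for PCCA, 0.271 for BCAT1, 0.092 for HSD17B10 and 0.133 for TOMM20. Within range 301 to 310 it was -0.022 for the second GLUD1 probe set and -0.024 for PPM1K. With the mean over probe sets it was 0.09 for GLUD1, -0.292 for GLUL and -0.128 for PDK4. Male minus female was 0.026 for GLUD1 and 0.029 for MCCC2 with quantile normalization. With identifier range as a term, and likewise within range 301 to 310, it was -0.071 for BCKDHA, -0.056 for BCKDK and 0.829 for BCAT1. With the mean over probe sets it was 0.197 for GLUD1, -0.09 for BCKDK, 0.053 for MCCC2 and 0.043 for BCAT1. The feed efficiency difference in males minus that in females was 0.013 for BCAT2 with the mean over probe sets and -0.114 for the second GLUD1 probe set with array weights.

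With each pig left out in turn, high minus low ran from -0.134 to 0.006 for the second BCAT2 probe set, -0.077 to 0.344 for BCKDHA, -0.018 to 0.084 for DBT, -0.061 to 0.056 for IVD, -0.176 to 0.029 for GLUD1 and -0.061 to 0.449 for its second probe set. For PPM1K it ran from -0.137 to 0.148, for DLD from -0.024 to 0.132, for BCAT1 from -0.374 to 0.238 and for GLUL from -0.145 to 0.182. Male minus female ran from -0.067 to 0.355 for BCKDHA, -0.256 to 0.014 for PCCA, -0.17 to 0.035 for GLUD1, -0.065 to 0.062 for MCCC2 and -0.413 to 0.2 for BCAT1. The feed efficiency difference in males minus that in females ran from -0.349 to 0.069 for BCAT2 and -0.02 to 0.295 for its second probe set, -0.401 to 0.03 for BCKDHB, -0.003 to 0.26 for IVD and -0.519 to 0.629 for the second GLUD1 probe set. The probe set of MCCC1 and 4 others of these genes were too dim to test.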
